A study of Homo sapiens with 4 samples.

Results

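The chaperonins are ring-shaped chaperones that enclose an unfolded protein in a central chamber and release it folded, using ATP. The cytosolic chaperonin TRiC, also called CCT, is a double ring of paralogous subunits encoded by TCP1, CCT2, CCT3, CCT4, CCT5, CCT6A, CCT7 and CCT8, and actin and tubulin are its best known clients. The mitochondrial chaperonin is built of HSP60, encoded by HSPD1, and is closed by a lid of HSP10, encoded by HSPE1. HSP60 and HSP10 serve proteins of the mitochondrial matrix. The 10 genes were taken by symbol from a table of 61806 genes, and each symbol named 1 gene.

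RNA came from 2 wild-type human cancer cell lines, MDA-MB-231 (breast cancer) and MDA-MB-435 (melanoma), each as a control and after CPYPP, an inhibitor of DOCK guanine nucleotide exchange factors, at 10 µM for 6 h. The question was which genes change in cells that enter paraptosis, a form of death with cytoplasmic vacuoles. Polyadenylated RNA was sequenced in 4 libraries, 1 per condition, so the spread between cultures is unknown. The labels describe culture and treatment for MDA-MB-435 alone and name no vehicle for the controls. SOX10, a transcription factor of the melanocyte lineage, had 0 and 1 counts in the MDA-MB-231 libraries and 3031 and 707 in the MDA-MB-435 libraries, and DCT, a pigment gene, had 1 and 3 against 658 and 464. MITF was at similar counts in both lines (1585 and 690, against 1405 and 809), whereas the pigment genes PMEL, MLANA and TYR did not exceed 34 counts in any library.

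The libraries held between 17196385 and 22663954 counts, with the CPYPP library the smaller one in each line. The chaperonin genes took up 0.458% of the counts in MDA-MB-231 control cells and 0.559% after CPYPP, and 0.511% and 0.71% in MDA-MB-435. Levels are given as counts per 1000000 counts (CPM) after TMM scaling, which sets the libraries to a common size from the bulk of the genes. Fold changes are CPYPP over control within a line, with a 95% Clopper-Pearson interval that covers counting error only. Fewer cells and less RNA per cell cannot be told apart in such bulk samples.

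HSPD1 had the highest CPM of the chaperonin genes in every library and the largest fold change in each line. It stood at 787 CPM (17639 counts) in MDA-MB-231 control cells and at 1389 CPM (22962 counts) after CPYPP. In MDA-MB-435 cells the level was 1330 CPM (31498 counts) in the control and 2461 CPM (47642 counts) after CPYPP. Under TMM scaling both CPYPP libraries thus lay above both control libraries, although the MDA-MB-435 control came close to the treated MDA-MB-231 cells. By total counts these close libraries changed places, with 22962 of 17196385 counts in treated MDA-MB-231 cells and 31498 of 22663954 in the MDA-MB-435 control. Treated MDA-MB-231 cells had a 1.76-fold higher level (1.73 to 1.80) than their control, and treated MDA-MB-435 cells a 1.85-fold higher level (1.82 to 1.88).

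HSPE1, the co-chaperonin, had the lowest CPM of the chaperonin genes in every library. Its level was 107 CPM (2393 counts) in the MDA-MB-231 control and 162 CPM (2678 counts) after CPYPP, against 166 CPM (3938 counts) and 285 CPM (5520 counts) in MDA-MB-435. Here the treated MDA-MB-231 library lay just below the MDA-MB-435 control, so the treatments overlap across lines while each line moved upward. HSPE1 was 1.52-fold higher (1.43 to 1.60) in treated MDA-MB-231 cells and 1.72-fold higher (1.65 to 1.79) in treated MDA-MB-435 cells. The fold change of HSPD1 exceeded that of HSPE1 by 0.22 on the log2 scale (0.13 to 0.30) in MDA-MB-231 and by 0.11 (0.05 to 0.17) in MDA-MB-435, both beyond counting error. HSPE1 accordingly made up 11.9% of the summed HSP60/HSP10 counts in MDA-MB-231 control cells and 10.4% after CPYPP, and 11.1% and 10.4% in MDA-MB-435.

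**Figure D1:**
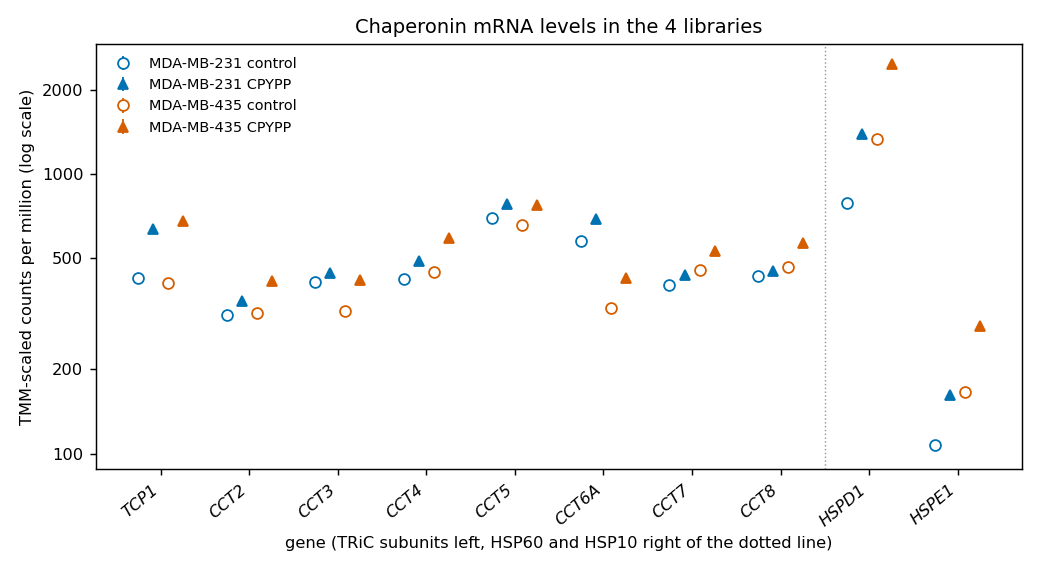
TMM-scaled CPM (log scale) of the 10 chaperonin genes in each of the 4 libraries, with open circles for control, filled triangles for CPYPP and 95% counting intervals that are mostly smaller than the symbols. HSPD1 lies between 787 and 2461 CPM and HSPE1 between 107 and 285 CPM, and each triangle lies above the circle of its own line.

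HSPD1 lies on chromosome 2 (197486584 to 197516737, minus strand) and HSPE1 on the plus strand of the same chromosome (197500140 to 197503449), in the coordinates of the deposited table, which are those of GRCh38. The deposited span of HSPE1 lies wholly inside that of HSPD1 and overlaps it by 3310 bases. Whether reads were counted by strand is not stated, so reads of the shared stretch cannot be assigned with certainty to either gene. In the RefSeq annotation of GRCh38.p14 the genes are divergent neighbours that do not overlap, and their starts (197500274 for HSPD1 and 197500379 for HSPE1) are 105 bases apart.

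TCP1, the alpha subunit, stood apart from the other TRiC subunits. Its level was 426 CPM (9540 counts) in the MDA-MB-231 control and 633 CPM (10467 counts) after CPYPP, and in MDA-MB-435 it was 406 CPM (9610 counts) and 678 CPM (13130 counts). The controls of the 2 lines were close together, and both treated libraries lay well above them. The fold change of TCP1 was 1.49 (1.45 to 1.53) in MDA-MB-231 and 1.67 (1.63 to 1.72) in MDA-MB-435. Set against the summed counts of the other 7 subunit genes, the fold change of TCP1 was larger by 0.41 (0.37 to 0.46) on the log2 scale in MDA-MB-231 and by 0.43 (0.39 to 0.47) in MDA-MB-435, a difference that does not depend on how the libraries were scaled. TCP1 and HSPE1, by contrast, could not be separated: the log2 difference of their fold changes was 0.03 (-0.06 to 0.12) and 0.04 (-0.03 to 0.11).

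The other 7 subunit genes had fold changes of 1.04 to 1.19 in MDA-MB-231 and of 1.17 to 1.32 in MDA-MB-435. CCT4, the delta subunit, was at 420 and 486 CPM in control and treated MDA-MB-231 cells and at 446 and 591 CPM in MDA-MB-435, which gave fold changes of 1.16 (1.12 to 1.19) and 1.32 (1.29 to 1.36). CCT6A, the zeta subunit, was at 577 and 689 CPM in MDA-MB-231 and at 332 and 426 CPM in MDA-MB-435, with fold changes of 1.19 (1.16 to 1.22) and 1.28 (1.24 to 1.32). The levels of CCT6A thus differed more between the lines than between the treatments. CCT2, the beta subunit, was at 314 and 351 CPM in MDA-MB-231 and at 317 and 413 CPM in MDA-MB-435, with fold changes of 1.12 (1.08 to 1.16) and 1.30 (1.26 to 1.35). CCT3, the gamma subunit, was at 409 and 441 CPM in MDA-MB-231 and at 324 and 418 CPM in MDA-MB-435, with fold changes of 1.08 (1.05 to 1.11) and 1.29 (1.25 to 1.33). These 2 genes had small fold changes in MDA-MB-231 and were nearer to CCT4 in MDA-MB-435.

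CCT5, the epsilon subunit, had the highest CPM among the TRiC genes, at 696 and 777 CPM in control and treated MDA-MB-231 cells and at 654 and 776 CPM in MDA-MB-435. CCT7, the eta subunit, was at 399 and 435 CPM in MDA-MB-231 and at 454 and 531 CPM in MDA-MB-435. CCT8, the theta subunit, was at 430 and 448 CPM in MDA-MB-231 and at 464 and 564 CPM in MDA-MB-435. The fold changes of these 3 genes in MDA-MB-435, at 1.19, 1.17 and 1.22, were the smallest of the 10 there. In MDA-MB-231 the fold change of CCT8 was 1.04 (1.01 to 1.07), and with total counts in place of TMM it was 0.998, on the other side of 1.

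**Figure D2:**
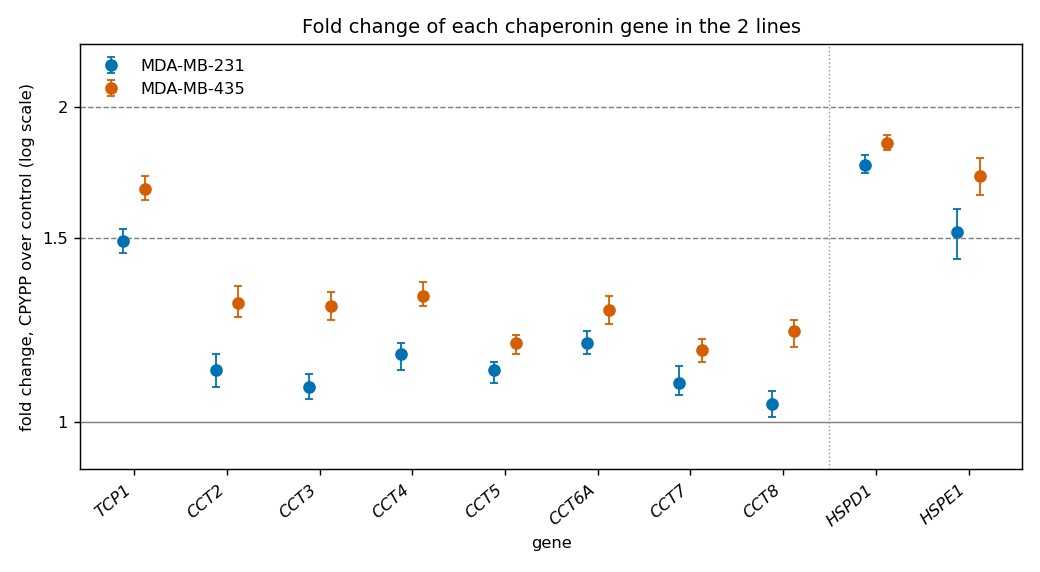
Fold change of each chaperonin gene, CPYPP over control (log scale), in MDA-MB-231 (blue) and MDA-MB-435 (orange), with 95% counting intervals, and dashed lines at 1.5-fold and 2-fold. HSPD1, HSPE1 and TCP1 lie between 1.49 and 1.85, the other genes between 1.04 and 1.32, and each orange point lies above the blue one.

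The fold change was above 1 for 10 of 10 genes in each line under TMM scaling, and for 9 of 10 in MDA-MB-231 with total counts. It was larger in MDA-MB-435 than in MDA-MB-231 for 10 of 10 genes under every scaling tried. The ratio of the lines' fold changes, MDA-MB-435 over MDA-MB-231, was smallest for HSPD1, at 1.05 (1.02 to 1.07), and for CCT3 it reached 1.20 (1.15 to 1.25). These intervals cover counting error, and with 1 library per condition the difference between the lines could not be tested against the spread between cultures. Over all genes tested, the median log2 fold change was -0.02 for MDA-MB-231 and -0.09 for MDA-MB-435. Under TMM scaling the fold change was above 1 for 47.8% of them in MDA-MB-231 and for 41.9% in MDA-MB-435. The share of all genes with the larger fold change in MDA-MB-435 is not given here, so that count of chaperonin genes has no background beside it.

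At the fold threshold of 2 used by the study, 0 of the 10 genes passed in either line, where 5.32% of 16441 genes in MDA-MB-231 and 3.45% of 16527 in MDA-MB-435 passed upward. Downward, 0 of 10 passed beside 5.52% and 10.9%. Past 1.5-fold were HSPD1 and HSPE1 in MDA-MB-231, that is 2 of 10 genes beside 12.0% of all genes tested, and HSPE1 was no longer past it with total counts, DESeq2 size factors or upper quartile scaling. In MDA-MB-435, TCP1 joined them, and the count was 3 of 10 beside 8.69%. None of the 10 genes was past 1.5-fold downward, where 12.1% and 20.7% of all genes were past 1.5-fold in the respective lines. A larger fold change than that of HSPD1 was seen for 7.38% of the genes tested in MDA-MB-231 cells and for 4.23% of those in MDA-MB-435 cells.

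As whole complexes, the TRiC genes summed to 82266 counts in control and 70432 in treated MDA-MB-231 cells, which was 1.16-fold (1.15 to 1.17) once the smaller treated library was scaled. For MDA-MB-435 cells the TRiC sums were 80483 and 85150 counts, or 1.29-fold (1.28 to 1.31). HSPD1 and HSPE1 summed to 20032 and 25640 counts in MDA-MB-231 cells, or 1.73-fold (1.70 to 1.77), and to 35436 and 53162 counts in MDA-MB-435 cells, or 1.84-fold (1.81 to 1.86). The mitochondrial chaperonin mRNAs therefore had the larger fold change in both lines. The difference on the log2 scale was 0.58 (0.55 to 0.61) in MDA-MB-231 and 0.50 (0.48 to 0.53) in MDA-MB-435, and because both sums come from the same libraries it does not change with the scaling. Without TCP1 the fold change of TRiC was 1.12 and 1.24, and the difference was 0.63 (0.60 to 0.67) and 0.56 (0.54 to 0.59). HSP60/HSP10 made up 19.6% of the chaperonin counts in MDA-MB-231 control cells and 26.7% after CPYPP, and 30.6% and 38.4% in MDA-MB-435.

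Within TRiC, the share of TCP1 in the subunit counts went from 11.6% (11.4% to 11.8%) to 14.9% (14.6% to 15.1%) in MDA-MB-231 and from 11.9% (11.7% to 12.2%) to 15.4% (15.2% to 15.7%) in MDA-MB-435. The share of CCT5 went down, from 19% to 18.2% in MDA-MB-231 and from 19.3% to 17.7% in MDA-MB-435, as did those of CCT3, CCT7 and CCT8 in both lines. Shares add up to the whole, so a gain of TCP1 lowers the rest even where their fold changes are above 1. CCT4 was at 11.4% in both MDA-MB-231 libraries and at 13.1% and 13.4% in MDA-MB-435. The share of CCT6A differed mainly between the lines, at 15.7% and 16.2% in MDA-MB-231 against 9.76% and 9.68% in MDA-MB-435.

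**Figure D3:**
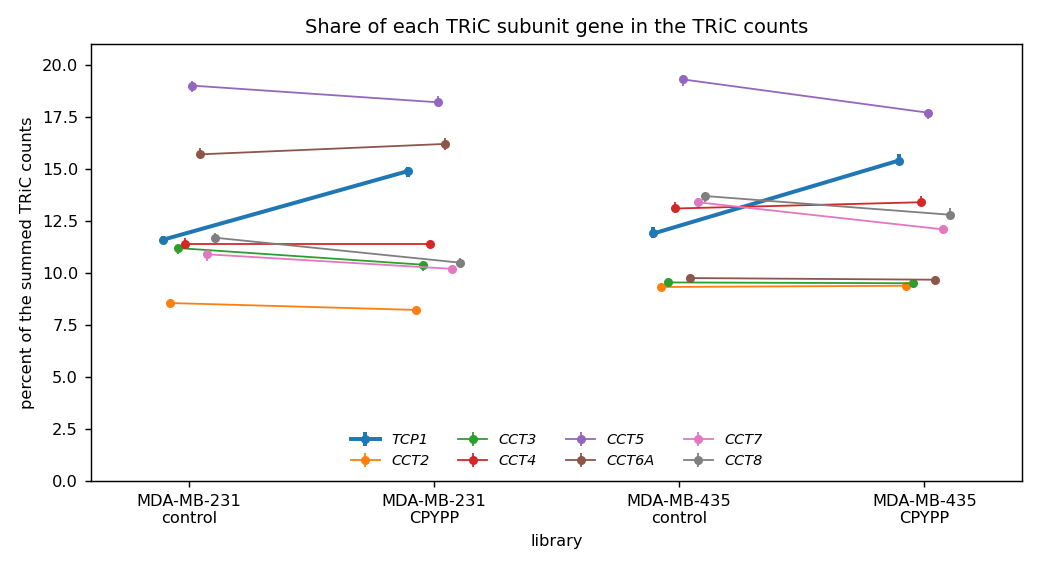
Percent of the summed TRiC counts that each of the 8 subunit genes holds in each library, with 95% counting intervals and lines that join control and CPYPP of a line. The share of TCP1 (thick line) goes from 11.6% to 14.9% in MDA-MB-231 and from 11.9% to 15.4% in MDA-MB-435, and that of CCT6A lies near 16% in MDA-MB-231 and below 10% in MDA-MB-435.

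Since CPYPP was repeated only across cell lines, its shared effect was tested in a fit to all 4 libraries that also holds a term for cell line and leaves 1 residual degree of freedom. By edgeR's quasi-likelihood test with Benjamini-Hochberg adjustment over 16801 genes, 3 of the 10 chaperonin genes rose at an adjusted p under 0.05, beside 4.39% of all genes that were called higher. HSPD1 rose by 0.85 on the log2 scale (SE 0.111, adjusted p = 0.00173 by edgeR). HSPE1 rose by 0.69 (SE 0.111, adjusted p = 0.00492 by edgeR). TCP1 rose by 0.66 (SE 0.112, adjusted p = 0.00669 by edgeR). The remaining 7 genes, all TRiC subunits, had estimates of 0.17 to 0.31 and did not pass (adjusted p from 0.128 for CCT6A to 0.453 for CCT8 by edgeR). Without the line term 0 of the 16801 genes tested passed by edgeR (167 had an unadjusted p under 0.05), and DESeq2 with that term called 6 chaperonin genes, while it called 2131 of the 16801 genes in either direction, against 1215 by edgeR.

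Between the lines, 3 of the 10 genes were called, in a test where the control and CPYPP libraries of a line are its only repeat. It therefore does not measure the spread between cultures. In the same edgeR fit the line term was past the threshold for HSPD1, with 0.79 on the log2 scale (SE 0.111, adjusted p = 0.000126) in favour of MDA-MB-435. The same held for HSPE1, with 0.73 (SE 0.111, adjusted p = 0.000224 by edgeR). CCT6A was lower in MDA-MB-435, at -0.75 (SE 0.11, adjusted p = 0.000173 by edgeR). These genes, 2 higher and 1 lower, stand beside 62.9% of all genes called in either direction, 30.5% higher and 32.4% lower. In the controls alone the level in MDA-MB-435 was 1.69 times (1.66 to 1.72) that in MDA-MB-231 for HSPD1, 1.56 times (1.48 to 1.64) for HSPE1 and 0.575 times (0.559 to 0.591) for CCT6A, and the other 7 genes ran from 0.792 for CCT3 to 1.14 for CCT7. HSPD1 and HSPE1 thus passed both the test for CPYPP and that for the line, TCP1 the first alone and CCT6A the second alone.

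To compare the levels of different genes, the CPM was divided by gene length in kilobases (RPKM). By the deposited exon lengths, which merge the exons of all transcripts, HSPD1 led in both MDA-MB-435 libraries, with 174 in the control and 323 after CPYPP. In treated MDA-MB-231 cells HSPD1 (182) and CCT4 (180) lay within counting error of each other. In the MDA-MB-231 control HSPD1 was at 103 and CCT4 was first at 156, within counting error of CCT6A at 150. The TRiC genes ranged from 74.3 to 156 there, and the ratio of the highest subunit (CCT4 in every library) to the lowest (CCT2) was between 2.10 and 2.24 over the 4 libraries. Most neighbours in this order were apart beyond counting error. Some were not, among them CCT4 and CCT6A in treated MDA-MB-231 cells (180 and 179) and CCT6A, CCT3 and TCP1 in the MDA-MB-435 control (86.2, 83.9 and 83.1).

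The order depends on the length that is used. By the length of the principal GENCODE v29 transcript (2455 bases for HSPD1, where the deposited length is 7629), HSPD1 led in all 4 libraries, at 321 and 566 in control and treated MDA-MB-231 cells and at 542 and 1002 in the MDA-MB-435 cells, and the spread among TRiC subunits narrowed to between 1.39-fold and 1.94-fold. The lowest subunit was then CCT2 in MDA-MB-231 and CCT6A in MDA-MB-435. The level of HSPD1 over that of HSPE1 was 1.76 and 2.05 in control and treated MDA-MB-231 cells by the deposited lengths and 2.85 and 3.32 by the principal transcripts. In MDA-MB-435 the same ratio was 1.91 and 2.06 by the deposited lengths and 3.10 and 3.34 by the principal transcripts.

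**Figure D4:**
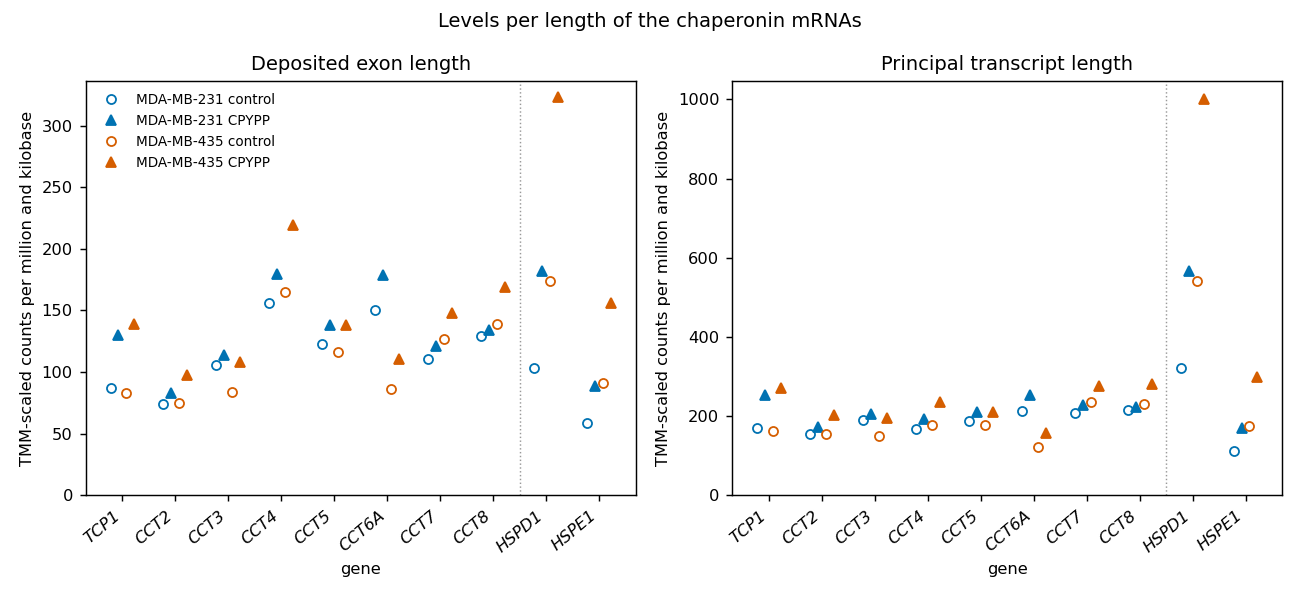
Levels per length (TMM-scaled CPM per kilobase) of the 10 chaperonin genes in the 4 libraries, by the deposited merged exon length (left) and by the length of the principal transcript (right). HSPD1 reaches 323 on the left and 1002 on the right in treated MDA-MB-435 cells, and the TRiC subunits lie closer together on the right.

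The starts of the chaperonin genes were searched for the motif bound by heat shock factors, in its shortest form GAANNTTC or TTCNNGAA (each is its own reverse complement, so both strands are covered, and neighbouring matches may overlap). The windows run from 250 bases before to 50 after each RefSeq start (GRCh38.p14), and 9 of the 10 genes had an entry, CCT6A being the one without. The motif was in a window of 4 of these 9 genes (TCP1, CCT2, CCT4 and HSPD1), beside 16.2% of 27305 genes. A longer form, in which 3 alternating GAA and TTC units are joined, was in HSPD1 alone among the 9, beside 0.608% of genes. The matches are printed 5′ to 3′ on the gene's strand, with the matched bases in capitals, to show the joined units of HSPD1, the gene with the largest fold change, beside the single matches of the other 3.
HSPD1 (chr2:197500061-197500090, minus strand): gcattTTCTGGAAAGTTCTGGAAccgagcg
TCP1 (chr6:159789815-159789844, minus strand): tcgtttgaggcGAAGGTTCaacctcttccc
CCT2 (chr12:69585789-69585818, plus strand): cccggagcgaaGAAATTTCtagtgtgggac
CCT4 (chr2:61888607-61888636, minus strand): cccgacgccggcgccgctTTCTGGAAggtt
The HSPD1 run holds 3 overlapping matches and belongs to the window of the downstream of its RefSeq starts, at 197499840, so that it lies between the gene's annotated starts and overlaps exons of HSPD1 and HSPE1 in GENCODE v29. The TCP1 match overlaps an exon of the neighbouring gene MRPL18. CCT2 and CCT4 hold a match, with fold changes of 1.12 and 1.16 in MDA-MB-231 and of 1.30 and 1.32 in MDA-MB-435. HSPE1 holds none in its own window, with fold changes of 1.52 and 1.72, and the HSPD1 run lies just outside that window. A match is a string of letters and not evidence of binding.

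MRPL18, which encodes a protein of the large mitochondrial ribosomal subunit, starts 210 bases from TCP1 in the RefSeq annotation and is read in the opposite direction. Of the bases between these starts, the 62 that are in no exon of GENCODE v29 are printed on the strand of TCP1, to show what separates the annotated exons.
TCP1 to MRPL18 (chr6:159789750-159789811, minus strand): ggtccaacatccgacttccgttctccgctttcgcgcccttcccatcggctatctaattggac
MRPL18 had 1252 and 1268 counts in control and treated MDA-MB-231 cells and 1427 and 2245 in MDA-MB-435, with fold changes of 1.37 (1.27 to 1.49) and 1.93 (1.80 to 2.06). It rose in the common effect, by 0.70 on the log2 scale (SE 0.139, adjusted p = 0.0142 by edgeR), as did TCP1. Apart from HSPE1, the other divergent neighbours did not pass. ATPSCKMT, which starts 32 bases from CCT5 and encodes a methyltransferase, had fold changes of 1.54 (1.33 to 1.77) and 1.31 (1.16 to 1.47), with an adjusted p of 0.0872 by edgeR. PSPH, a serine synthesis enzyme next to CCT6A, had fold changes of 1.12 (0.986 to 1.27) and 1.65 (1.47 to 1.85), with an adjusted p of 0.162 by edgeR. COMMD1 next to CCT4 had 1.17 and 1.30, PRADC1 next to CCT7 had 0.863 and 0.911, and MOB4, which overlaps HSPD1 by 1167 bases, had 0.983 and 1.08. ACAT2, which overlaps the end of TCP1 by 615 bases, had 0.834 and 1.01. The remaining overlapping genes had at most 45 counts in any library.

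The genes that work with TRiC gave no calls in the common effect, where 4.39% of all genes were called higher and 2.85% lower, so a list of this size holds few calls in any case. Of 10 partners, 0 were higher or lower by edgeR, and their median estimate of 0.08 stands beside 0.25 for the 8 TRiC genes. These partners were prefoldin subunits, which hand over unfolded actin and tubulin, phosducin-like cofactors, and PDCD5. PDCL, a phosducin-like cofactor, had the largest estimate, 0.38 (adjusted p = 0.154 by edgeR), with fold changes of 1.13 and 1.49. PDCL3 had the smallest, with fold changes of 0.773 and 0.923. Of 15 actins, tubulins and tubulin cofactors, 0 passed either, and their median was -0.15. Among those with at least 100 counts in every library, TBCA, which binds beta-tubulin, had the highest mean fold change, with 0.986 and 1.37, and TBCC, a later-acting tubulin cofactor, the lowest, with 0.662 and 0.848. The same list includes ACTB, which went from 117133 to 81718 counts in MDA-MB-231 and from 135493 to 95227 in MDA-MB-435, fold changes of 0.945 and 0.860.

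BBS10, which encodes a chaperonin-like protein that assembles with TRiC on Bardet-Biedl syndrome proteins, fell. It went from 826 to 374 counts in MDA-MB-231 and from 545 to 167 in MDA-MB-435, and the common estimate was -1.04 (SE 0.194, adjusted p = 0.0105 by edgeR). It was the 1 call among 4 tested genes of the chaperonin-like list of 5, beside 2.85% of all genes called lower. BBS12, a related gene, had 164 and 85 counts in MDA-MB-231 cells against 165 and 44 in MDA-MB-435 cells, with an estimate of -1.03 (SE 0.333) that did not pass (adjusted p = 0.0959 by edgeR). MKKS had fold changes of 1.13 and 0.947. CCT6B, the testis form of the zeta subunit, had between 27 and 47 counts in a library, and CCT8L2 had 0 in all 4.

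Among other mitochondrial folding and proteolysis genes, 2 of 15 tested rose and 0 fell, beside 4.39% and 2.85% of all genes, with a list median of -0.01. Both encode nucleotide exchange factors of mitochondrial HSP70. GRPEL2 went from 992 to 931 counts in MDA-MB-231 and from 1503 to 3408 in MDA-MB-435, with fold changes of 1.27 (1.16 to 1.39) and 2.77 (2.61 to 2.95) and a common estimate of 0.92 (adjusted p = 0.0279 by edgeR). GRPEL1, named after its values were seen, had fold changes of 1.32 and 1.39 and an estimate of 0.43 (adjusted p = 0.0454 by edgeR). HSPA9, the mitochondrial HSP70 itself, had fold changes of 1.18 and 1.49, with an adjusted p of 0.0735 by edgeR. CLPP, the matrix protease, had the lowest mean, with 0.843 and 0.821.

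The cytosolic heat shock chaperones moved further than the chaperonins. All 16 on the list rose in the common effect by edgeR, beside 4.39% of all genes, with a median of 1.20 on the log2 scale, and the median log2 fold change was 1.03 within MDA-MB-231 cells and 1.37 within MDA-MB-435 cells. As the list was chosen with earlier results of these data known, the count describes its genes and is not independent evidence. HSPA1B, an inducible HSP70 gene that shares most of its sequence with HSPA1A, had 1181 counts in control and 38209 in treated MDA-MB-231 cells, and 294 and 26838 in the MDA-MB-435 cells, and reads could have been split between these copies. At the lower end FKBP4, an HSP90 co-chaperone, had fold changes of 1.31 and 1.35 and an estimate of 0.41 (adjusted p = 0.0458 by edgeR). The estimates of HSPD1, HSPE1 and TCP1, at 0.85, 0.69 and 0.66, lay within the range of this list and below its median, and those of the other 7 TRiC genes lay below the whole range. The motif above was in a window of 10 of the 15 heat shock genes with an entry, and the 3 joined units in 5 of them.

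**Figure D5:**
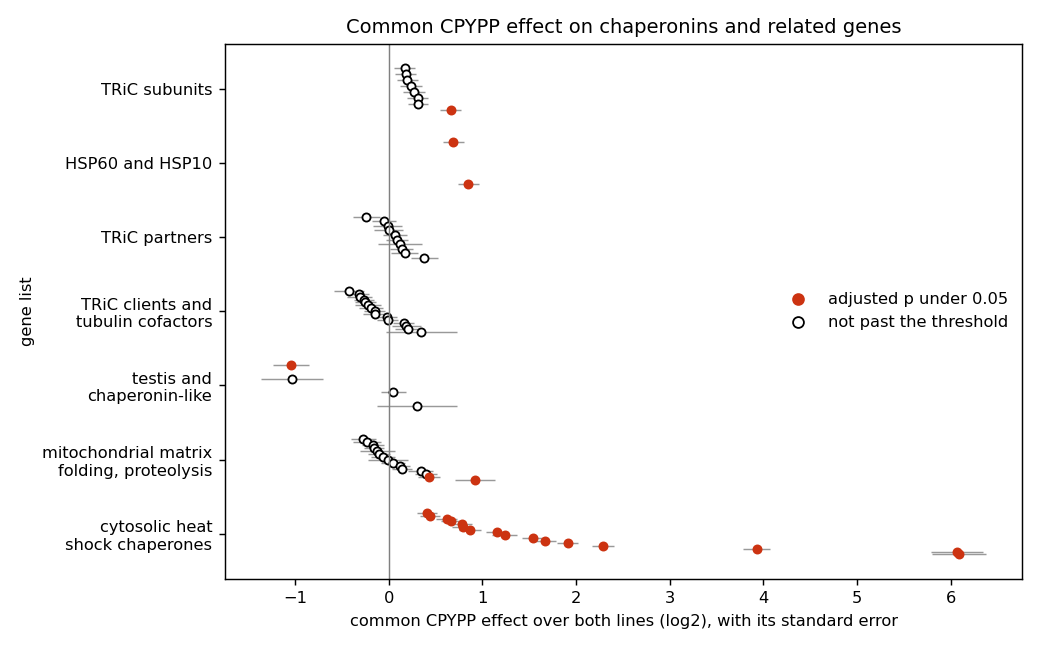
Common CPYPP effect (log2, with a standard error derived from the edgeR test statistic over 4 libraries) of each tested gene in the TRiC and HSP60/HSP10 sets and 5 related lists, filled in red where the adjusted p was under 0.05. TCP1, at 0.66, stands to the right of the other TRiC subunits at 0.17 to 0.31, and the cytosolic heat shock genes run from 0.41 to 6.09.

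Genes most like HSPD1 and HSPE1 in pattern were sought by the distance over 3 values (the log2 fold change in each line and the log2 ratio of the controls, MDA-MB-435 over MDA-MB-231), among 9353 genes with at least 100 counts in every library. Nearest to HSPD1, with values of 0.82, 0.89 and 0.76, were GCC1, TXNL4B, DCUN1D3, ERO1B and SLC26A11, at distances of 0.12 to 0.23. Nearest to HSPE1, with 0.60, 0.78 and 0.64, were CASP4, VMP1, PCYT1A, UFD1 and COQ10B, at 0.07 to 0.14. HSPD1 and HSPE1 were each left out of the other's search, as were all the chaperonin genes. The distances describe 4 libraries and carry no test.

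Pseudogenes can take reads from their parent genes. HSPD1 had 18 rows named as its pseudogenes and HSPE1 had 26, which held between 0.886% and 1.49% as many counts as the parent in a library. For CCT6A, with 4 such rows, the amount was 1.68% to 3.83%, the highest of the 10 genes. It was 2.19% and 1.68% for the MDA-MB-231 libraries against 3.83% and 3.82% for the MDA-MB-435 libraries. How many reads of CCT6A were lost to such copies was not tested. For the other TRiC genes it did not exceed 1.08%.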

How the data were processed

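Per the submitters' processing notes, reads were handled with cutadapt 1.9.1, HISAT2 2.2.1, HTSeq 0.6.1 and DESeq2. The authors deposited raw read counts per gene, not normalized, with gene positions and exon lengths. The notes name GRCh37.p13, but 58241 of 58254 identifiers shared with GENCODE v29 overlap its GRCh38 positions. The strand setting is not given in the sources used here. The growth and treatment labels name MDA-MB-435 for every sample, so the line was taken from the cell line label.

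Counts were scaled by TMM over the 4 libraries (factors 1, 0.961, 1.05 and 0.993). Fold changes within a line covered genes that reached 10 counts in either library of the line. The common effect and the line term came from edgeR 4.0.16 (R 4.3.3; glmQLFit and glmQLFTest after filterByExpr), tested on simulated data. Standard errors (SE) are not given by that test and were derived as the absolute estimate over the square root of its F statistic. The labels do not say that the 4 samples were separate cultures. DESeq2 1.42.0 and Python 3.11.15 served the alternatives and summaries, of which 37 were planned and 7 added after seeing the data. Intervals at these depths, 17196385 to 22663954 counts, cover counting error only. Sequences came from RefSeq (GRCh38.p14).

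The 10 genes and the lists were chosen with earlier results of these data known. Named beside them were the list genes with the highest and lowest mean fold change among those with at least 100 counts in each library, markers, pseudogenes, overlapping genes, genes starting within 1 kb and the 5 genes most like HSPD1 and HSPE1. The same search for the TRiC genes is not reported here. Other list genes named for background follow no rule of size.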

Additional observations from a re-analysis of the deposited data

How the results depend on the processing

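Control and CPYPP were paired within a line by the line term of the common effect, and with 1 library per condition there are no further replicate numbers to pair. With total counts, DESeq2 size factors and upper quartile scaling in turn, the summed TRiC fold change in MDA-MB-231 was 1.11, 1.15 and 1.13, and in MDA-MB-435 it was 1.23, 1.32 and 1.27. The summed HSP60/HSP10 fold change was 1.66 with total counts and 1.68 with upper quartile scaling in MDA-MB-231, and 1.74, 1.87 and 1.80 under the same 3 scalings in MDA-MB-435. TMM within MDA-MB-435, added after seeing the data, gave 1.36 for TRiC and 1.93 for HSP60/HSP10. The median of the subunits gave 1.12 for TRiC in MDA-MB-231, and the mean of the 2 genes gave 1.64 and 1.78 for HSP60/HSP10 in the respective lines. Leaving out TCP1, also added later, gave 1.12 and 1.24 for TRiC and moved the difference between the chaperonins to 0.63 and 0.56, and the mean minus the median gave 0.47 in MDA-MB-435. Past 1.5-fold in place of 2-fold were 2 and 3 of the 10 genes, and in MDA-MB-231 only 1 was past 1.5-fold with total counts, DESeq2 size factors or upper quartile scaling. With DESeq2 size factors 1 TRiC partner and 2 mitochondrial folding and proteolysis genes were past 1.5-fold in MDA-MB-435. CCT8 in MDA-MB-231 was at 0.998 with total counts and also as FPKM. In the common effect, DESeq2 called 6 of the 10 genes, adding CCT4, CCT5 and CCT6A, and without the line as a block edgeR called 0. The line term was past the threshold for 5 of the 10 genes with total counts, which added CCT7 and CCT8, and CCT5 changed sign there, to 0.01. With TMM scaling, 62.9% of all genes were past the threshold for the line term, and the share with total counts is not given here. The fold changes under another scaling differ from those under TMM by 1 factor per line, and the cause of the other shifts was not tested. Of 96 values for whole comparisons 65 kept their size and side of the threshold, and 0 changed direction. Many of these values are counts of genes, which have no direction to change. Among values for single chaperonin genes, 2 of 100 fold changes and 1 of 30 line differences changed direction. The counting intervals of these abundant genes are narrow, and the spread between cultures is not known.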
